A study of Mus with 16 samples.

Results

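Matrix genes of the meninges and vessels were followed in each animal of a forebrain mRNA-seq experiment on loss of *Kdm5c*, the X-linked gene for a demethylase of lysine 4 on histone H3. The 9 genes were taken by fixed Ensembl identifiers with no cutoff on their values, though earlier results of these data were known. The count table held 54219 genes, and all 9 were among the 17866 that passed the filter on low counts. They are the fibrillar collagen genes *Col1a1* (ENSMUSG00000001506), *Col1a2* (ENSMUSG00000029661) and *Col3a1* (ENSMUSG00000026043), the proteoglycan genes *Dcn* (ENSMUSG00000019929), *Lum* (ENSMUSG00000036446) and *Bgn* (ENSMUSG00000031375), *Fn1* (ENSMUSG00000026193), and the collagen IV genes *Col4a1* (ENSMUSG00000031502) and *Col4a2* (ENSMUSG00000031503). Bulk polyA RNA came from micro-dissected cortex and hippocampus of 16 mice at postnatal day 6, with 4 mice in each group: WT males, *Kdm5c*-KO males that are hemizygous for the deletion, WT females, and *Kdm5c*-HET females that carry 1 deleted and 1 intact allele. The deleted allele lacks a pair of *Kdm5c* exons after Cre-mediated deletion, and all groups were on a mixed C57BL/6J and 129S1/SvImJ background from several litters, with the litter of each mouse not given in the sources used here. Each mouse is named here by its group and by the number and letter in its title, such as WT male 2D. The letter is D or E, its meaning is not given in the sources used here, and it was unevenly spread, with 3 D and 1 E among WT males, 2 and 2 among *Kdm5c*-KO males, 2 and 2 among WT females, and 1 and 3 among *Kdm5c*-HET females.

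Fibrillar collagens form the load-bearing fibers of connective tissue, and small leucine-rich proteoglycans coat those fibers and set their thickness and spacing. In the brain such fibers are largely restricted to the meninges and the outer coat of larger vessels, where fibroblasts make them, whereas collagen IV forms the sheet-like basement membrane around vessels of every size and at the pial surface, made by endothelial and mural cells in vessels and by meningeal cells at the pia. Fibronectin links cells to both kinds of matrix through integrins. In a bulk forebrain sample, fewer cells of a type and less RNA per cell cannot be told apart.

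Total counts ranged from 21513783 to 30063352 per animal. The 24 pairs of animals within a group differed well beyond counting noise, with a chi-square per gene of 2.89 to 15.2. For 4 genes every male had at least 100 counts and every female at most 3, and for 1 gene every female had at least 100 counts and every male at most 30, so the sex labels separated the libraries. *Kdm5c* itself was not analysed here. Levels are given as CPM, each count relative to its library's total after edgeR's trimmed mean of M-values (TMM) scaling. They are not corrected for transcript length, so levels are compared between animals and not between genes. A difference was called when edgeR's quasi-likelihood test gave an adjusted p (q) under 0.1 over all 17866 genes.

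*Col1a1* encodes the alpha 1 chain of type I collagen and lies on chromosome 11 from 94936224 to 94953042 (mm10 coordinates of RefSeq, as for all genes below). In WT males its level was 18.4 CPM in 2D, 10.9 in 5D, 7.44 in 7D and 31.9 in 1E, and in *Kdm5c*-KO males it was 14.04 in 4D, 6.77 in 6D, 6.75 in 2E and 11.7 in 3E. In WT females it was 19.8 CPM in 1D, 15.9 in 3D, 17.4 in 4E and 10.6 in 5E, and in *Kdm5c*-HET females it was 37.3 in 9D, 23.2 in 6E, 9.32 in 8E and 13.1 in 9E. The highest and lowest animals differed 5.53-fold, and both WT males and *Kdm5c*-HET females each spanned over 4-fold on their own, from 7.44 to 31.9 CPM and from 9.32 to 37.3 CPM. Group means were 20.7 ± 12.5 CPM (SD, n = 4) in *Kdm5c*-HET females, 17.2 ± 10.9 in WT males, 15.9 ± 3.88 in WT females and 9.82 ± 3.66 in *Kdm5c*-KO males. Each pair of neighbours in that order lay within the SD of at least one of the groups, apart from WT females and *Kdm5c*-KO males, which differed by more than either SD. That last pair differs in sex and genotype together, and it was not tested.

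*Col1a2*, for the alpha 2 chain of type I collagen, lies on chromosome 6 from 4505618 to 4541543. In males its level was 27.4, 15.9, 10.1 and 35.2 CPM in WT 2D, 5D, 7D and 1E, and 21.1, 13.1, 12.3 and 17.1 CPM in *Kdm5c*-KO 4D, 6D, 2E and 3E. In females it was 23.8, 21.2, 18.8 and 10.7 CPM in WT 1D, 3D, 4E and 5E, and 47.5, 29.9, 12.1 and 18.4 CPM in *Kdm5c*-HET 9D, 6E, 8E and 9E. *Kdm5c*-HET 9D was highest and WT male 1E was next, as for *Col1a1*. The range of *Kdm5c*-KO males fell inside that of WT males.

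*Col3a1*, for type III collagen of vessel walls and other distensible tissue, lies on chromosome 1 from 45311538 to 45349706. In males it measured 15.0, 9.13, 7.75 and 23.1 CPM in WT 2D, 5D, 7D and 1E, and 14.1, 8.76, 9.54 and 12.7 CPM in *Kdm5c*-KO 4D, 6D, 2E and 3E. In females it measured 20.1, 13.9, 12.3 and 11.04 CPM in WT 1D, 3D, 4E and 5E, and 26.9, 21.1, 9.67 and 11.6 CPM in *Kdm5c*-HET 9D, 6E, 8E and 9E. The same 2 animals, *Kdm5c*-HET 9D and WT male 1E, were highest, and the range over the 16 animals was 3.47-fold.

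**Figure D1:**
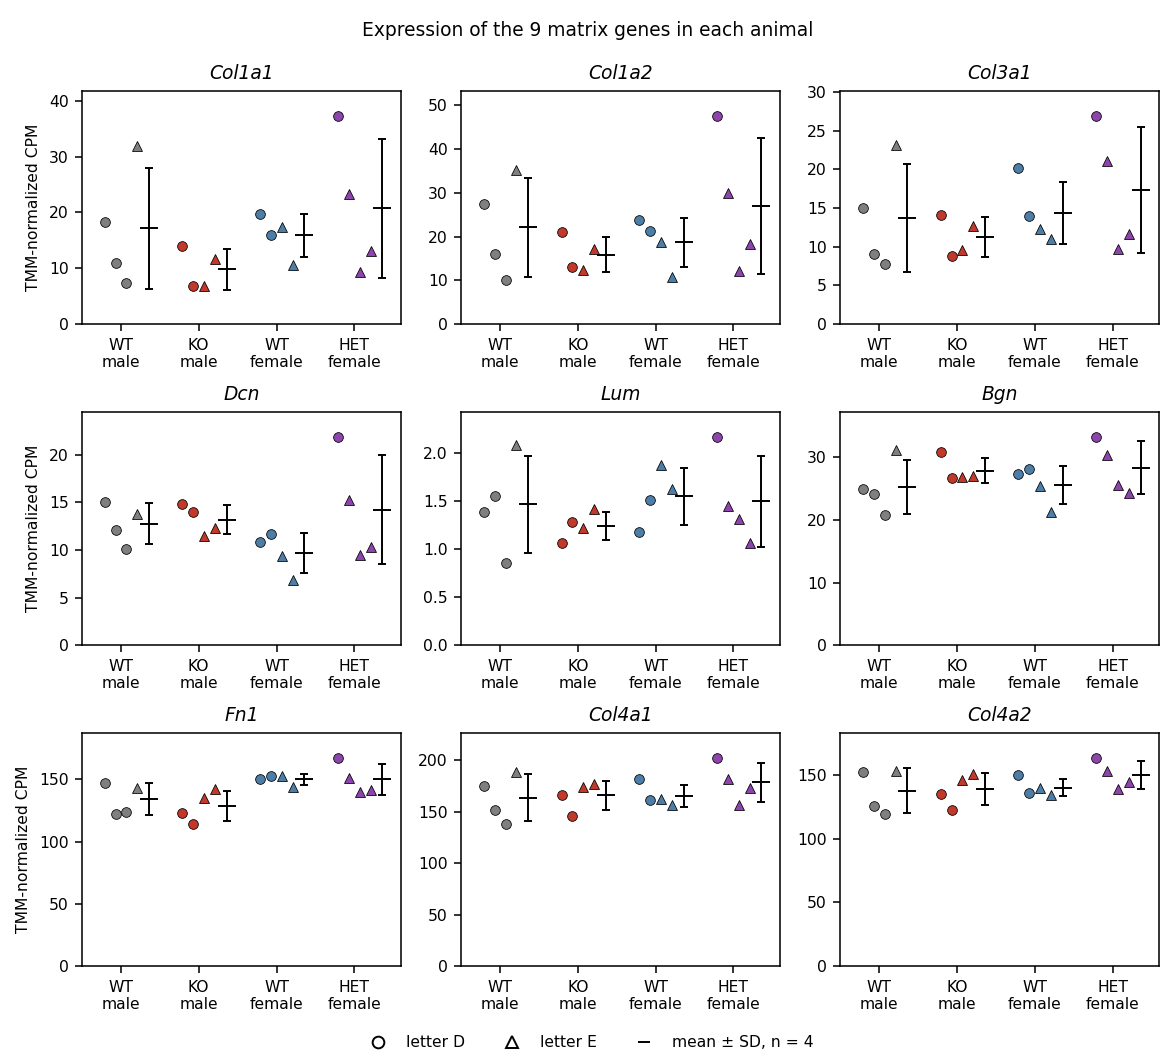
TMM-normalized CPM (y axes, from 0) of the 9 matrix genes in each of 16 animals, by group, with circles for letter D, triangles for letter E, and the mean with SD (n = 4) beside each group. *Kdm5c*-HET female 9D is the highest animal in every panel, and the fibrillar collagens in the top panels spread up to 5.53-fold while *Col4a2* spreads 1.37-fold.

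*Dcn* encodes decorin, a proteoglycan that binds collagen fibrils and TGF-beta, and lies on chromosome 10 from 97479500 to 97518163. In males its level was 15.0, 12.1, 10.1 and 13.8 CPM in WT 2D, 5D, 7D and 1E, and 14.9, 14.02, 11.52 and 12.3 CPM in *Kdm5c*-KO 4D, 6D, 2E and 3E. In females it was 10.9, 11.7, 9.34 and 6.83 CPM in WT 1D, 3D, 4E and 5E, and 21.9, 15.2, 9.44 and 10.3 CPM in *Kdm5c*-HET 9D, 6E, 8E and 9E. WT male 1E, second for type I and type III collagen, stood below 5 other animals for *Dcn*, and the lowest animal was WT female 5E.

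*Lum*, for lumican, which regulates the assembly of collagen fibrils, lies 47337 bases from *Dcn* on chromosome 10, from 97565501 to 97572703. It was thinly covered, with 19 to 55 counts per animal, so counting error alone was 22.9% at the lowest count. In males it measured 1.38, 1.55, 0.852 and 2.08 CPM in WT 2D, 5D, 7D and 1E, and 1.06, 1.27, 1.21 and 1.41 CPM in *Kdm5c*-KO 4D, 6D, 2E and 3E. In females it measured 1.17, 1.51, 1.88 and 1.62 CPM in WT 1D, 3D, 4E and 5E, and 2.16, 1.45, 1.31 and 1.06 CPM in *Kdm5c*-HET 9D, 6E, 8E and 9E. The 4 groups overlapped almost completely, with 9D and 1E again at the top.

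*Bgn*, for biglycan, a proteoglycan close in structure to decorin, lies on the X chromosome from 73483601 to 73495936. In males its level was 25.0, 24.2, 20.8 and 31.2 CPM in WT 2D, 5D, 7D and 1E, and 30.9, 26.7, 26.8 and 27.0 CPM in *Kdm5c*-KO 4D, 6D, 2E and 3E. In females it was 27.4, 28.1, 25.4 and 21.3 CPM in WT 1D, 3D, 4E and 5E, and 33.3, 30.3, 25.6 and 24.2 CPM in *Kdm5c*-HET 9D, 6E, 8E and 9E. *Bgn* ranged 1.60-fold over the 16 animals, and 4D stood above the other *Kdm5c*-KO males.

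*Fn1*, for fibronectin, lies on chromosome 1 from 71585473 to 71653280. In males its level was 147, 122, 124 and 143 CPM in WT 2D, 5D, 7D and 1E, and 123, 114, 135 and 142 CPM in *Kdm5c*-KO 4D, 6D, 2E and 3E. In females it was 150.3, 153, 153 and 144 CPM in WT 1D, 3D, 4E and 5E, and 167, 151, 139.8 and 141 CPM in *Kdm5c*-HET 9D, 6E, 8E and 9E. WT females lay close together at 149.98 ± 4.24 CPM (SD, n = 4), *Kdm5c*-HET females had nearly the same mean with a wider spread (149.97 ± 12.7), and WT males (134 ± 12.9) and *Kdm5c*-KO males (129 ± 12.4) were lower.

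*Col4a1* and *Col4a2* encode the alpha 1 and alpha 2 chains that wind into the main collagen IV trimer of vascular basement membrane. They stand head to head on chromosome 8, *Col4a1* from 11198423 to 11312889 and *Col4a2* from 11312805 to 11449287, and their RefSeq spans share 85 bases. *Col4a1* also overlaps *Gm15418* and *Gm32709*, and *Col4a2* overlaps *Gm46030*. The strand setting of the counting is not given in the sources used here, so a small share of their reads could be assigned differently, whereas the other 7 genes overlap no RefSeq gene. *Col4a1* measured 175, 152, 138 and 189 CPM in WT males 2D, 5D, 7D and 1E, and 167, 146, 174 and 176 CPM in *Kdm5c*-KO males 4D, 6D, 2E and 3E. It measured 181, 161, 162 and 157 CPM in WT females 1D, 3D, 4E and 5E, and 202, 182, 156 and 173 CPM in *Kdm5c*-HET females 9D, 6E, 8E and 9E. The highest and lowest of the 16 animals differed 1.47-fold, with 9D at the top and WT male 7D at the bottom. *Col4a2* measured 152, 125, 119 and 153 CPM in WT males 2D, 5D, 7D and 1E, and 135, 123, 146 and 151 CPM in *Kdm5c*-KO males 4D, 6D, 2E and 3E. It measured 149, 136, 139.5 and 134 CPM in WT females 1D, 3D, 4E and 5E, and 163, 153, 139 and 144 CPM in *Kdm5c*-HET females 9D, 6E, 8E and 9E. *Col4a2* followed *Col4a1* animal by animal over a 1.37-fold range.

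The fibrillar collagens were therefore the members that differed most between animals of the same group. The SD of log2 CPM within groups was 0.714 for *Col1a1*, 0.663 for *Col1a2* and 0.555 for *Col3a1*, against a median of 0.143 over the 17866 genes tested. Genes with a mean level within 0.5 log2 of these members had median SDs of only 0.131, 0.115 and 0.135. *Dcn* at 0.358 and *Bgn* at 0.191 were also more variable than genes of their level (0.141 and 0.102), and *Lum* at 0.361 was close to the 0.349 of its equally low neighbours. *Fn1* (0.117), *Col4a1* (0.149) and *Col4a2* (0.130) had small SDs, yet genes of their level had medians of 0.0657, 0.0642 and 0.0654. In edgeR's terms the variation between animals beyond counting was 38.5% for *Col1a1* and 7.27% for *Fn1*, and counting error at the lowest *Col1a1* count of 166 was 7.76%.

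**Figure D2:**
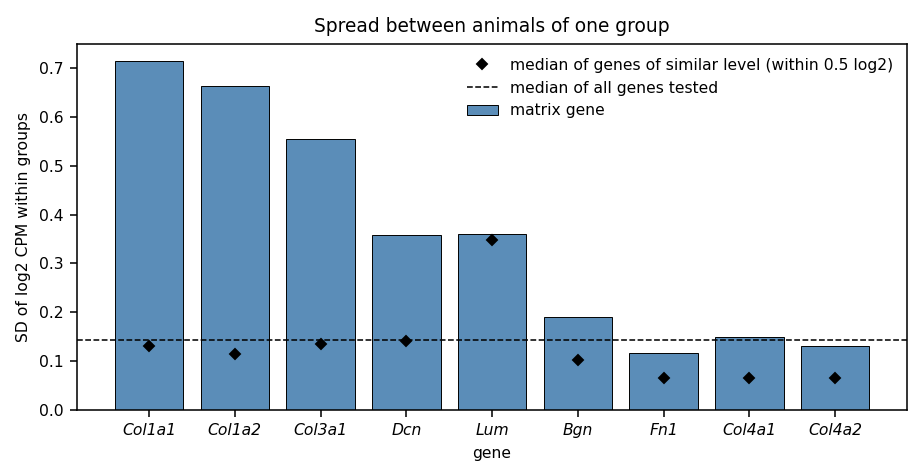
SD of log2 CPM about the group means, pooled over the 4 groups (y axis), for the 9 matrix genes (bars), with the median SD of genes of similar level (diamonds) and of all genes tested (dashed line). *Col1a1*, *Col1a2* and *Col3a1* reach 0.714, 0.663 and 0.555 against 0.143 for all genes.

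The same animals tended to stand high or low in several genes. *Kdm5c*-HET female 9D had the highest level of all 16 animals in all 9 genes, while WT male 7D had the lowest in 6 of 9, the exceptions being *Col1a1*, *Dcn* and *Fn1*. WT male 1E and *Kdm5c*-HET female 6E were above the median of the 16 animals in all 9 genes, and *Kdm5c*-HET female 8E and WT male 7D were above it in none. The mean deviation of the 3 fibrillar collagens from their 16-animal means was 1.25 log2 units in 9D, 0.96 in 1E and 0.68 in 6E, and -0.86 in 7D, -0.72 in *Kdm5c*-KO 6D and -0.71 in *Kdm5c*-KO 2E. For the collagen IV genes the same quantity stayed between -0.26 in 7D and 0.24 in 9D. Animals of 2 groups and of both letters thus stood at the high end.

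**Figure D3:**
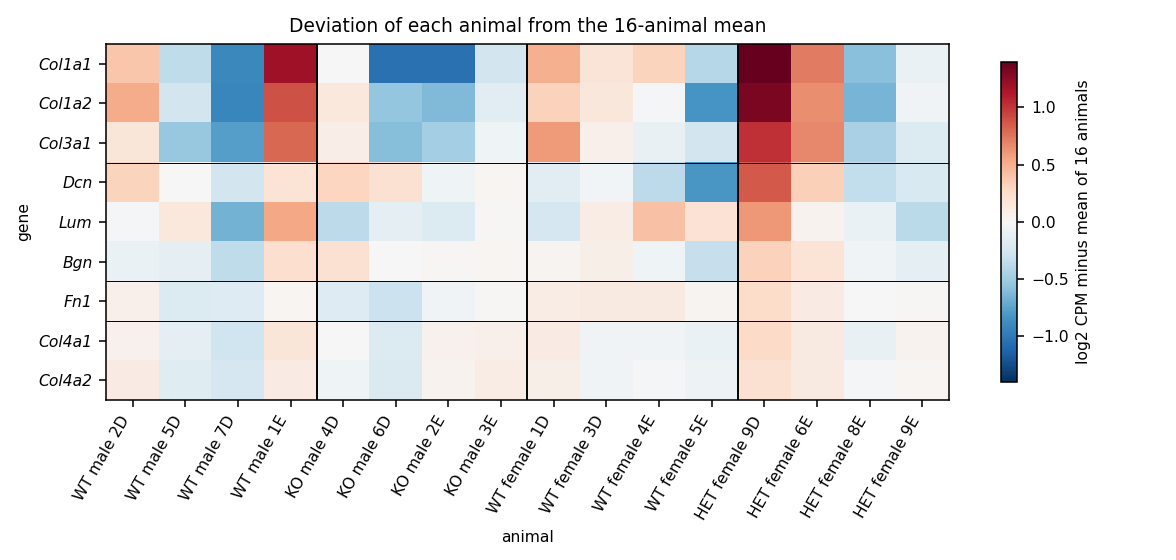
Deviation of log2 CPM of each animal (columns, with vertical lines between groups) from the mean of 16 animals, for the 9 matrix genes (rows in order of class), from blue (lower) to red (higher). Columns 9D, 1E and 6E are red in the fibrillar collagens, at mean deviations of 1.25, 0.96 and 0.68, while the collagen IV rows stay pale, between -0.26 and 0.24.

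The comparison of *Kdm5c*-KO with WT males asked whether complete loss of *Kdm5c* shifts these genes. No matrix gene was called (0 of 9 by edgeR and 0 of 9 by DESeq2), against 5.24% of all genes, and none had an unadjusted edgeR p under 0.05. The largest difference was in *Col1a1*, with a log2 fold change (Log2FC) of -0.80 (SE 0.408, 95% interval -1.65 to 0.056, q = 0.344). *Col1a2* was at -0.48 (interval -1.24 to 0.29) and *Col3a1* at -0.28 (interval -0.95 to 0.39). The *Col1a1* difference rested in large part on WT male 1E, and was -0.32 without it (edgeR q = 0.739). *Col1a2* was then at -0.17, and *Col3a1* turned to 0.08. The proteoglycans were at 0.05 for *Dcn*, -0.24 for *Lum* and 0.14 for *Bgn*, and without 1E at 0.08, -0.04 and 0.25. *Fn1* had the narrowest interval, at -0.06 (-0.21 to 0.089), followed by *Col4a2* at 0.01 (-0.15 to 0.17) and *Col4a1* at 0.02 (-0.16 to 0.20). The median over the 9 genes was -0.06, against -0.0072 over all genes tested. In an exact two-sided permutation test on log2 CPM, for which the smallest p is 0.0286, the 9 genes gave p from 0.257 (*Col1a1*) to 0.914 (*Col4a2*), and the groups overlapped in every gene.

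Within the letter D, with 2 *Kdm5c*-KO and 3 WT males, the difference in mean log2 CPM was -0.23 for *Col1a1*, 0.02 for *Col1a2* and 0.12 for *Col3a1*. Within the letter E, where 1E is the only WT male, the differences were -1.84, -1.27 and -1.07. Neither split was tested.

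In *Kdm5c*-HET against WT females, which asked the same of partial loss, no matrix gene was called either (0 of 9 by edgeR and by DESeq2), against 0.509% of all genes. *Dcn* had the only unadjusted edgeR p under 0.05 (Log2FC 0.55, SE 0.2096, interval 0.11 to 0.99, p = 0.0169, q = 0.587; exact permutation p = 0.229). Of the fibrillar collagens, *Col1a2* was at 0.52 (interval -0.23 to 1.27), *Col1a1* at 0.38 (interval -0.44 to 1.19) and *Col3a1* at 0.27 (interval -0.38 to 0.91). These values leaned on 9D, and without that animal they were 0.10, -0.07 and -0.03, with *Dcn* at 0.26. *Lum* was at -0.04, *Bgn* at 0.15, *Col4a1* at 0.11 (interval -0.074 to 0.29) and *Col4a2* at 0.10 (interval -0.063 to 0.26), and these too were lower without 9D, at -0.27, 0.06, 0.04 and 0.05. *Fn1* was level, at 1.0-fold with an interval of 0.902 to 1.11. The median over the 9 genes was 0.15, against -0.0008 over all genes tested, and exact p ranged from 0.2 (*Col4a2*) to 0.971 (*Fn1*), with overlapping groups throughout.

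Within the letter D, where 9D is the only *Kdm5c*-HET female, the difference from 2 WT females was 1.07 log2 CPM for *Col1a1*, 1.08 for *Col1a2*, 0.68 for *Col3a1* and 0.95 for *Dcn*. Within the letter E, with 3 *Kdm5c*-HET and 2 WT females, it was 0.06, 0.40, 0.19 and 0.51. With the letter as a covariate the *Dcn* difference was 0.63 (edgeR q = 0.108).

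The difference between the female and the male response was positive in all 9 genes, from 0.0085 in *Bgn* to 1.18 in *Col1a1*, and none was called (0 of 9 by edgeR and by DESeq2, 0 with an unadjusted p under 0.05), against 0.0392% of all genes. For *Col1a1* the interval was -0.0037 to 2.35 (edgeR q = 0.777) and for *Col1a2* the difference was 1.0 (interval -0.072 to 2.07, q = 0.778). For *Col4a1* it was 0.09 (interval -0.17 to 0.35). All of these values leaned on 1 animal of each sex. Without WT male 1E they were 0.70 for *Col1a1*, 0.70 for *Col1a2* and 0.18 for *Col3a1*, the last from 0.54, and *Col4a1* was at 0.01. Without *Kdm5c*-HET female 9D they were 0.72, 0.57, 0.24 and 0.02, and *Dcn* went from 0.50 to 0.21. *Lum* and *Bgn* were below 0 without either animal, so the shared direction of the 9 genes did not hold then.

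**Figure D4:**
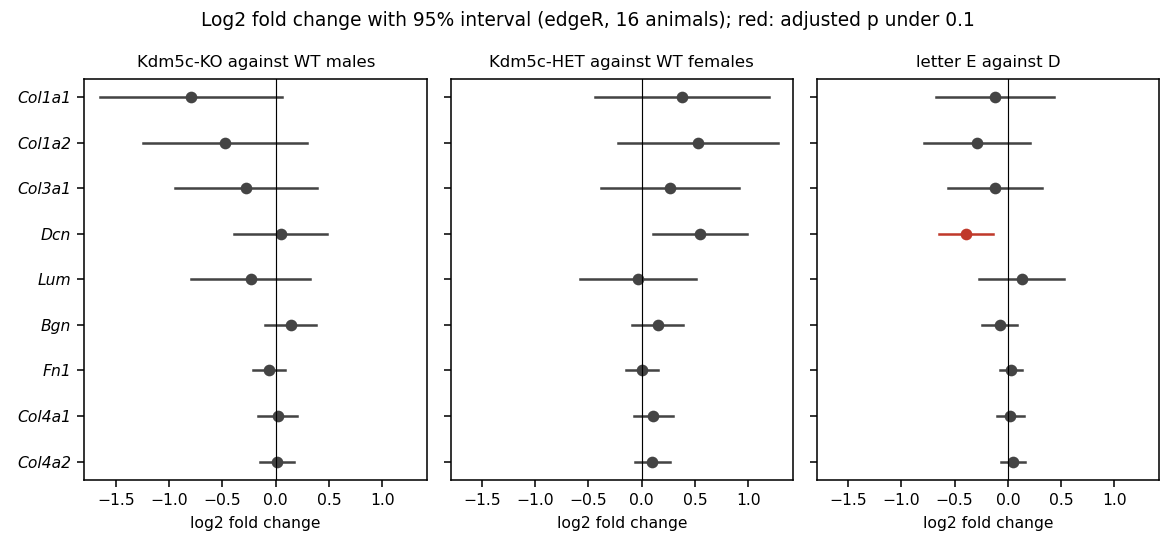
Log2 fold change (x axes) with 95% interval for the 9 matrix genes in *Kdm5c*-KO against WT males, *Kdm5c*-HET against WT females and letter E against D, with red for an adjusted p under 0.1. Intervals are widest for *Col1a1* (-1.65 to 0.056 in males) and narrowest for *Fn1* and collagen IV, and *Dcn* in the letter comparison is the only red point.

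WT females and WT males did not differ by the call in any of the 9 genes (0 by edgeR and by DESeq2), against 5% of all genes. For *Lum* DESeq2 gave no adjusted p in this comparison. That share rested on single animals, since the 894 genes called became 69 without WT female 5E, 73 without WT male 5D, 319 without WT male 7D and 436 without WT female 4E. *Fn1* had the only unadjusted edgeR p under 0.05, at 0.16 higher in females (SE 0.0713, interval 0.012 to 0.31, q = 0.237; exact permutation p = 0.0571). *Dcn* was at -0.39 in females (interval -0.83 to 0.052, edgeR q = 0.343), and the other 7 genes were between -0.24 and 0.08.

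Between letters, with a mean for each group in the fit, *Dcn* was the only matrix gene called, 1 of 9 by edgeR and 1 of 9 by DESeq2, against 23.6% of all genes. *Dcn* ranged from 10.1 to 21.9 CPM with a median of 13.1 in the 8 animals of letter D, and from 6.83 to 15.2 with a median of 10.9 in the 8 of letter E, so the letters overlapped. It was lower in E by a Log2FC of -0.39 (SE 0.121, interval -0.64 to -0.14, edgeR q = 0.0282). The call was lost without 9D, at -0.23 (q = 0.231). With the letter as a covariate, 0 of 9 matrix genes were called in any of the genotype and sex comparisons. The other 8 genes were between -0.29 (*Col1a2*) and 0.13 (*Lum*). Without WT male 1E, 5 matrix genes were called lower in E by edgeR, namely *Col1a2* (-0.68), *Col1a1* (-0.60), *Dcn* (-0.54), *Col3a1* (-0.49) and *Bgn* (-0.21). The share of all genes called without 1E is not given here, so this count is not read as a result about the matrix genes. The 2 animals that stood highest thus moved the count of matrix genes called in opposite directions.

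The filter on low counts changed the calls in each comparison. With every gene that had at least 1 count in the fit, 35337 in all, the Log2FC values stayed nearly the same. Standard errors of the genes other than *Lum* fell, for *Col1a1* in *Kdm5c*-KO males from 0.408 to 0.154, while that of *Lum* there went from 0.266 to 0.276. Of the 35337 genes, 1279 were called in males, 228 in females and 80 for the difference between the female and male response. For WT females against WT males 1298 were called, and between letters 3839. Among the 9 matrix genes, 2 were called in each comparison. In males these were *Col1a1* (-0.79, edgeR q = 9.67e-05) and *Col1a2* (-0.47, q = 0.0334), and in females *Col1a2* (0.52, q = 0.0344) and *Dcn* (0.54, q = 0.00253). For the difference between the female and male response they were *Col1a1* (1.17, edgeR q = 0.000225) and *Col1a2* (0.99, q = 0.000919), which had q of 0.777 and 0.778 with the filter. For WT females against WT males they were *Dcn* (-0.38, edgeR q = 0.0536) and *Fn1* (0.17, q = 0.075), and between letters *Col1a2* (-0.29, q = 9.7e-06) and *Dcn* (-0.39, q = 1.86e-06). The exact tests compared each gene alone and took no estimate of spread from other genes.

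The matrix genes varied together over the 16 animals. All 36 pairs had a positive Pearson r on log2 CPM, from 0.138 to 0.962 with a median of 0.714, and 29 pairs had a permutation p under 0.05 after Benjamini-Hochberg adjustment over the 36 pairs. For *Col4a1* and *Col4a2*, r was 0.962 and Spearman's rho 0.956, each with a permutation p of 1e-05, the smallest that 100000 resamples can give (adjusted p = 7.2e-05 for r and 0.00012 for rho), and r was 0.937 without the 2 animals farthest from the median. For *Col1a1*, r was 0.946 with *Col1a2* (rho 0.941) and 0.949 with *Col3a1* (rho 0.938), and 0.902 and 0.906 without 9D and 1E, again with a permutation p of 1e-05 for each r. The fibrillar and basement membrane genes were linked as well, most closely *Col3a1* and *Col4a1* (r = 0.882, rho = 0.885, 0.804 without the 2 farthest animals, permutation p = 1e-05 for r and 7e-05 for rho).

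The proteoglycans were looser over the 16 animals. *Dcn* and *Bgn* had an r of 0.779 (rho 0.644, permutation p = 0.00036 and 0.00827), whereas the neighbouring genes *Dcn* and *Lum* had 0.261 (rho 0.174, permutation p = 0.33 and 0.518) and *Lum* and *Bgn* 0.445 (rho 0.294, p = 0.0852 and 0.268 by permutation). The relation of *Dcn* to *Col1a1* (r = 0.527, rho = 0.482, permutation p = 0.0355 and 0.0608) rested on the extreme animals and was 0.249 without 9D and 1E, while that of *Dcn* to *Col1a2* was 0.751, and 0.615 without them. When each animal was taken as its deviation from the mean of its group, all 36 pairs stayed positive, with a lowest r of 0.466 for *Dcn* and *Lum*. In deviations from a fit with both group and letter, *Dcn* had an r of 0.748 with *Lum* and 0.788 with *Fn1*, against 0.261 and 0.138 over the animals as they stood. These deviations still include 9D, the highest animal in every gene. Without 9D, r on log2 CPM was -0.03 for *Dcn* and *Lum* and -0.20 for *Dcn* and *Fn1*, and every other pair stayed positive, with 0.926 for *Col1a1* and *Col1a2* and 0.954 for *Col4a1* and *Col4a2*.

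**Figure D5:**
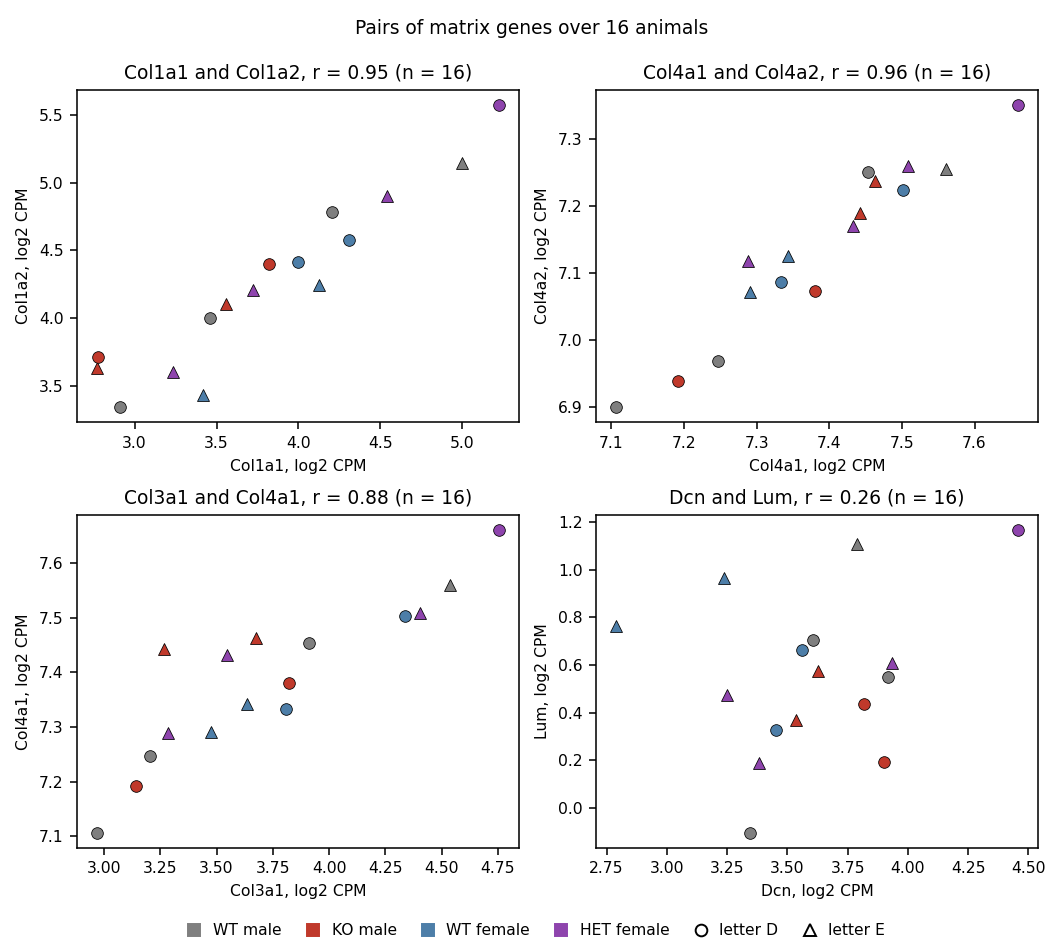
Log2 CPM of 4 pairs of matrix genes against each other over 16 animals, with color for group and shape for letter. *Col1a1* with *Col1a2* (r = 0.946) and *Col4a1* with *Col4a2* (r = 0.962) lie along a line through animals of all groups, and *Dcn* with *Lum* (r = 0.261) do not.

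The ratio of counts was steadiest for the collagen IV pair. *Col4a1* to *Col4a2* counts stood between 1.13 in *Kdm5c*-HET 8E and 1.24 in *Kdm5c*-HET 9D, with a median of 1.19 and an SD of 0.0403 on the log2 scale. *Col1a1* to *Col1a2*, whose chains form the same trimer, ran from 0.518 in *Kdm5c*-KO 6D to 0.988 in WT female 5E (SD 0.249), although the pair's r was close to that of collagen IV. *Dcn* to *Lum* ran from 4.22 in WT female 5E to 13.96 in *Kdm5c*-KO 4D (SD 0.453). These ratios are of counts, not per length, and are read only between animals. The pairs also differ in depth, with a counting error at the lowest count of 1.94% for *Col4a2*, 7.76% for *Col1a1* and 22.9% for *Lum*. The part of counting error in the SDs of the ratios was not tested.

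Among all 17865 other genes tested, those most like *Col1a1* over the 16 animals were *Col3a1* and *Col1a2*, in that order. Ranks 3 to 5 went to genes without a symbol in the sources used here, led by ENSMUSG00000024650 (r = 0.926). Of the 17865 genes, 9 had an r above 0.9 with *Col1a1*, and *Col3a1* and *Col1a2* were the only matrix genes among them. An r above 0.7 was seen in 0.61% of the 17865 genes, and their median r was 0.0173. The gene most like *Col4a1* was *Col4a2*, followed by ENSMUSG00000027474 (r = 0.914) and *Col3a1* (r = 0.882), with 0.627% of genes above 0.7. Genes of one library share its depth and dissection and are not independent of each other, so these ranks are a description.

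Of 92 other genes of matrix assembly, 8 had a symbol paired with an identifier, through the study's table of changed genes, so they were picked on these same animals and their counts are not independent evidence. In *Kdm5c*-KO against WT males 7 of the 8 were called, in both directions, against 5.24% of all genes. *Col5a3*, a chain of fibril-forming type V collagen, rose by 0.82 (edgeR q = 0.0183), *Loxl1*, an enzyme that cross-links elastin and collagen, by 0.76 (q = 0.0088), *Col4a4* of the minor collagen IV network by 0.49 (q = 0.0757) and the laminin chain gene *Lama4* by 0.31 (q = 0.0422). *Col4a3*, which pairs with *Col4a4* in the same network, fell by 0.88 (edgeR q = 0.0855), *Col6a3* of microfibrillar type VI collagen fell by 0.71 (q = 0.0116), and *Postn*, a matricellular protein gene, fell by 0.62 (q = 0.0345). *Fbln2*, for a fibulin of elastic fibers and basement membranes, was not called in males (0.35, edgeR q = 0.132) and was called in E against D (0.29, q = 0.00169). None of the 8 was called in *Kdm5c*-HET against WT females, where 0.509% of all genes were, so a count of 0 among 8 does not set them apart.

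The source cells of the matrix genes could not be checked, because no gene of the meningeal fibroblast, mural cell or endothelial marker lists, nor of the microglia, border macrophage and bone or cartilage lists, was paired with an identifier. Other lists could be read in part, in 11 of 95 marker genes. These too were paired through the study's table of changed genes and so picked on these same animals, so their calls are not independent evidence and are not set against those of the matrix genes (5.24% of all genes were called in males and 23.6% between letters). Of the forebrain neuron list, *Rbfox3* was at 216 to 251 CPM in *Kdm5c*-KO males and 244 to 275 in WT males (Log2FC -0.19, edgeR q = 0.0642), and at 229 to 253 in *Kdm5c*-HET and 237 to 268 in WT females (-0.09, q = 0.908). It was also called lower in E than in D (-0.12, edgeR q = 0.00625). *Emx1* was at 29.2 to 33.0 CPM in *Kdm5c*-KO males and 34.4 to 41.0 in WT males (-0.23, edgeR q = 0.0948), and at 29.1 to 31.9 in *Kdm5c*-HET and 27.4 to 35.2 in WT females (-0.02, q = 0.998). The choroid plexus genes *Ttr* and *Aqp1* (2 of 12 listed) summed to 205 CPM in WT males 2D and 5D, 184 and 195 in WT females 1D and 3D, and 86.6 and 58.7 in *Kdm5c*-HET females 8E and 9E. They stood at 1.98 to 2.82 CPM in *Kdm5c*-KO males, 4.00 and 4.95 in WT females 4E and 5E, and 3.31 and 4.54 in *Kdm5c*-HET females 9D and 6E. WT male 1E was at 1.48 CPM and WT male 7D at 6.36. The sum is mostly *Ttr*, and *Aqp1* alone placed 9D differently, at 2.64 CPM (67 counts), above 8E (2.06) and 9E (1.02) and nearer to WT males 2D and 5D and WT females 1D and 3D, of which the lowest was at 3.03 CPM. Without WT males 2D and 5D, *Col1a1* in *Kdm5c*-KO against WT males was -1.0 (edgeR q = 0.574) and 0 of 9 matrix genes were called. The summed hemoglobin genes (4 of 5 erythroid genes) were lower in *Kdm5c*-KO males, 66.1 to 107 CPM, than in WT males, 118 to 146, and were 90.8 to 104 in WT females and 96.1 to 103 in *Kdm5c*-HET females. *Aqp4*, of astrocytes, was at 120.3 to 145 CPM in *Kdm5c*-KO males and 149 to 167 in WT males (Log2FC -0.24, edgeR q = 0.115, not called), at 133 to 169 in WT females and at 135 to 170.5 in *Kdm5c*-HET females. It was called lower in E than in D (-0.20, edgeR q = 0.000214). *Acta1*, from the skeletal muscle list, was at 14.7 to 19.7 CPM in *Kdm5c*-KO males, 9.96 to 11.4 in *Kdm5c*-HET females and 5.30 to 7.85 in WT animals. Their part in the matrix gene values was not tested.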

How the data were processed

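Processed values were gene counts, 1 column per animal. Per the study's methods and the submitters' processing notes, the authors aligned paired-end reads to mm10 with STAR 2.5.3a, removed duplicates, kept uniquely mapped reads and deposited raw counts per gene from featureCounts (Subread 1.5.0). The strand setting of the counting is not given in the sources used here, and the library kit was directional. RNA isolation, library preparation and sequencing are stated to be a single batch.

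Here the 17866 of 54219 genes that passed edgeR's filterByExpr were scaled by TMM and fitted with edgeR 4.0.16 (R 4.3.3; glmQLFit and glmQLFTest), 1 mean per group over all 16 animals, with Benjamini-Hochberg adjustment over all genes and calls at 0.1. Standard errors are the Log2FC over the root of F, and intervals are at 95%. Log2 CPM used a prior count of 2. Exact two-sided permutation tests compared 4 animals with 4. Correlations used 100000 resamples with seed 1. Alternatives were DESeq2 1.42.0, its size factors in edgeR, no filter, at least 10 counts in every animal, only the groups compared, the letter as a covariate, a threshold of 0.05, WT males 2D and 5D left out, and each animal left out in turn. The fits were tested on simulated data, with 100 genes changed by 0.5 log2 and 100 by 1. Of those changed by 0.5, 55% were recovered in *Kdm5c*-KO males, 61% in *Kdm5c*-HET females and 52% for the difference of responses. False calls there were 10.7%, 15.9% and 12.3% of the calls. For WT females against WT males 62% were recovered with 5.26% false calls, and between letters 73% with 6.82%. The simulated counts took their spread from a fit with group and letter. They held no letter difference outside the letter comparison, unlike the data, where 23.6% of genes were called between letters. The rates are over randomly drawn genes and were not worked out for genes as variable as *Col1a1*.

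The members and all lists were chosen with earlier results of these data known, so patterns already seen there are not independent support. Named were all 9 members, called genes of the matrix lists (up to 4 per list), the genes most like *Col1a1* and *Col4a1*, and up to 2 leading genes per marker list. Symbols were paired with identifiers through the members' own list and the study's table of changed genes (1014 genes); other symbols were not analysed here, and 1 marker gene is not reported here. Positions are from RefSeq (GRCm38.p6), matched by symbol. p-values compare separate mice, and those of edgeR also draw on the spread of other genes. Litter was in no fit. Some numbers in the titles recur in another group with the other letter, but no source used here says that they pair mice, and no paired fit was made. No sequence is shown, since no sequence file was used.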

Additional observations from a re-analysis of the deposited data

Results flagged for a closer look

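*Bgn* in *Kdm5c*-KO males had 1 sample far from the others. Animal 4D was at 30.9 CPM and the other 3 *Kdm5c*-KO males were between 26.7 and 27.0 CPM, so that the gap to the nearest animal was 0.924 of the whole range on the log2 scale, above Dixon's 95% critical value of 0.829 for 4 samples. This was the only one of 36 combinations of gene and group past that value, and chance alone passes it in about 1 in 20 groups. The same animal was highest among *Kdm5c*-KO males in *Col1a1*, *Col1a2*, *Col3a1* and *Dcn* as well, at 14.04, 21.1, 14.1 and 14.9 CPM, without standing apart by this measure.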

How the results depend on the processing

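No matrix gene was called in the genotype or sex comparisons under any alternative except that without the filter on low counts. There 2 of 9 were called in each of the 5 comparisons, the letters included, and the cause was not tested. Of the 35337 genes in that fit, 1279 were called in *Kdm5c*-KO males, 228 in *Kdm5c*-HET females and 80 for the difference of responses. For WT females against WT males 1298 were called, and between letters 3839. Leaving out each animal in turn, with the filter, gave 0 (without *Kdm5c*-HET 9D) to 5 (without WT male 1E) matrix genes called between letters. Lowest and highest values with 1 animal left out follow for each result whose sign turned. In *Kdm5c*-KO against WT males they were -0.47 and 0.082 for *Col3a1*, -0.047 and 0.14 for *Dcn*, -0.050 and 0.097 for *Col4a1*, and -0.048 and 0.067 for *Col4a2*. In *Kdm5c*-HET against WT females they were -0.070 and 0.62 for *Col1a1*, -0.032 and 0.47 for *Col3a1*, -0.27 and 0.094 for *Lum*, and -0.059 and 0.029 for *Fn1*. In the difference of responses they were -0.038 and 0.37 for *Lum* and -0.10 and 0.085 for *Bgn*. In WT females against WT males they were -0.34 and 0.37 for *Col1a1*, -0.47 and 0.068 for *Col1a2*, -0.13 and 0.44 for *Col3a1*, -0.11 and 0.27 for *Lum*, -0.064 and 0.13 for *Bgn*, -0.056 and 0.093 for *Col4a1*, and -0.037 and 0.079 for *Col4a2*. Between letters they were -0.60 and 0.26 for *Col1a1*, -0.68 and 0.020 for *Col1a2*, -0.49 and 0.13 for *Col3a1*, -0.033 and 0.40 for *Lum*, and -0.048 and 0.099 for *Col4a1*. *Fn1* in females was 0.00020 with at least 10 counts in every animal and 0.00054 with only the groups compared, *Col4a2* in males was -0.00049 with the letter as a covariate, and in WT females against WT males *Col3a1* was -0.096 and *Bgn* -0.023 without WT males 2D and 5D. Without the 2 farthest animals, r was -0.17 for *Dcn* and *Fn1* and -0.0087 for *Lum* and *Bgn*. Counts of all genes called moved as follows from 937 (*Kdm5c*-KO males), 91 (*Kdm5c*-HET females), 7 (difference of responses) and 894 (WT females against WT males). With DESeq2 there were 26 for the difference of responses and 1517 for WT females against WT males, and without the filter 228 for *Kdm5c*-HET females and 80 for the difference. With the letter as a covariate there were 1468, 157, 24 and 1679, and at a threshold of 0.05 there were 583 for *Kdm5c*-KO males and 348 for WT females against WT males. Without WT males 2D and 5D there were 274, 3 for the difference and 10 for WT females against WT males. With 1 animal left out the counts ran from 555 (without WT male 5D; 571 without 2D, 561 without *Kdm5c*-KO 2E, 593 without 3E) to 1129 for *Kdm5c*-KO males, 50 (without WT female 3D; 54 without *Kdm5c*-HET 8E, 59 without 6E) to 89 for *Kdm5c*-HET females, and 69 (without WT female 5E) to 1243 for WT females against WT males. With 4 animals in a group the interval for *Col1a1* in males ran from -1.65 to 0.056, and at 19 to 55 counts *Lum* is limited by depth.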
